A study of Rattus norvegicus with 4 samples.

Results

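The genes described are 10 components of canonical WNT signaling, chosen by name: the coreceptors Lrp5 and Lrp6, the scaffold genes Axin1, Axin2 and Apc, the receptor ubiquitin ligase Rnf43, and the transcription factor genes Tcf7l2, Tcf7l1, Tcf7 and Lef1. Of these, 9 were among the 23360 gene symbols in the deposited tables, and Axin1 was not analysed here. They were measured in INS-1 832/3 cells, an insulin-secreting line from a rat insulinoma that also carries a human insulin gene. The control group was 2 standard monolayer cultures (2D) with no hydrogel, and the other group was 2 cultures of the same line 3D-bioprinted in GelXA LAMININK 411 hydrogel (3D), an ink that contains a laminin, a protein of basement membranes. All 4 cultures shared 1 medium and were harvested after 5 days at passage 3. The labels call them biological replicates. A single tumor-derived line stood in for beta cells, so that no other islet or stromal cell was part of either group by design.

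In the canonical pathway, WNT ligands bind a Frizzled receptor together with LRP5 or LRP6. This recruits AXIN to the membrane and halts the destruction complex, in which APC and AXIN hold beta-catenin for phosphorylation by CK1 and GSK3 and for its degradation. Beta-catenin that escapes enters the nucleus and turns on genes through the TCF and LEF factors. AXIN2 and RNF43 are products of such target genes and act back on the pathway, AXIN2 as a scaffold of the destruction complex and RNF43 by removing Frizzled receptors from the membrane, which R-spondins oppose. In beta cells the pathway is known for its part in proliferation and in insulin secretion, and TCF7L2 for its link to type 2 diabetes.

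The sequence that TCF and LEF factors bind was looked for in the promoters of the members, since Axin2 and Rnf43 are known as targets of these factors. RefSeq promoter windows of the GRCr8 build, reaching from 250 bases before the gene's start to at most 50 after it, were found for 7 of the 10 members, and not for Lrp5, Lrp6 or Axin1. The letters ATCAAAG, or CTTTGAT where the motif lies on the opposite strand, were present in the windows of Axin2 and Tcf7. They were present in 3.63% of all 33469 windows. The related letters TTCAAAG, or CTTTGAA on the opposite strand, were in 5.40% of windows and, among members, in that of Axin2 alone. The stretches of Axin2 and Tcf7 are shown 5′ to 3′ along the gene's strand, with the matches in capitals. They hold the 250 bases before the start and, for Tcf7, the 3 further bases that complete its match. The Axin2 stretch lies at chr10:94398535-94398784 on the plus strand and the Tcf7 stretch at chr10:36954277-36954529 on the minus strand.
Axin2: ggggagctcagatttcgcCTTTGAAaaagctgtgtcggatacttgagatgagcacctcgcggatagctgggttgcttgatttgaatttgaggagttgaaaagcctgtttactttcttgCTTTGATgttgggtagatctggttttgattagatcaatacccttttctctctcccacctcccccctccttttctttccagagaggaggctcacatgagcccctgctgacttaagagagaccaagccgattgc
Tcf7: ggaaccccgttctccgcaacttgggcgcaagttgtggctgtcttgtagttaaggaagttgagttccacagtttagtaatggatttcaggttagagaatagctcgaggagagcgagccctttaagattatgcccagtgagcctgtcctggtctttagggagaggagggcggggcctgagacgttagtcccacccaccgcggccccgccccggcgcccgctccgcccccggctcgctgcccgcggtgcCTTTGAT
In Axin2 the first match began 232 bases before the start and the other 132 bases before it. In Tcf7 the match began 4 bases before the start. A match of letters is a description of the sequence and not a measured binding site.

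The values are TPM, abundances of transcripts corrected for their length and brought to a fixed sum in every sample. Levels can thus be compared between genes of a culture. A fixed sum alone does not make cultures comparable, because a larger share of some transcripts lowers all others. The 10 highest transcripts made up 23.4% and 24.2% of TPM in the 2D cultures and 26.4% and 26.9% in the 3D cultures. The TPM given here are not scaled between cultures. Per gene symbol, TPM were summed over its transcripts. Between 19355 and 19959 of 31201 listed transcripts were above 0 in each sample, and TPM keep no read number, so no counting error can be given. For the test, samples were scaled by factors between 0.960 and 1.02, and log2(TPM + 1) was fitted with limma for the 11960 genes whose mean TPM reached 1. Fold changes are differences between 3D and 2D on this log2 scale, which understates the change of low genes, and p-values were adjusted by Benjamini-Hochberg over all genes tested. They rest on the spread between 2 cultures per group, which limma moderates with the spread of other genes of similar level. An exact permutation test of 1 gene could not give a two-sided p below 0.333. Ins1, Ins2 and the other genes of a beta-cell marker list summed to between 148101 and 171077 TPM per culture. Most of this sum was Ins1, so it hides changes of the other markers. At an adjusted p below 0.05 in limma, 25% of the 12 markers tested changed, beside 38.0% of all genes. Slc2a2 and Pcsk2 rose with log2 fold changes of 0.39 and 0.58, and Ins2 fell with one of -0.58. Endothelial markers summed to between 1.08 and 1.69 TPM, with Cdh5, Tie1 and Emcn listed at 0 in all cultures. Most of this was Kdr, at 0.965 and 1.00 TPM in 2D and 1.27 and 1.48 TPM in 3D. Fibroblast markers summed to between 1.91 and 2.35 TPM, with Dcn, Lum and Pdgfrb listed at 0. Most of that was Pdgfra, at 1.90 and 1.87 TPM in 2D and 2.32 and 2.24 TPM in 3D. Neither Kdr nor Pdgfra was called (limma, adjusted p = 0.198 and 0.289). Markers of other islet cells summed to 42.2 and 74.4 TPM in 2D and to 125 and 156 TPM in 3D. Nearly all of this was Gcg, the glucagon gene, which rose with a log2 fold change of 1.26 (limma, adjusted p = 0.0217), while Ghrl and Hhex were listed at 0. The part of Gcg-expressing cells in the results for WNT genes was not tested. In bulk RNA, fewer cells with a transcript and less of it per cell cannot be told apart.

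The members spanned a wide range of levels. By mean TPM over the 4 cultures, the order was Apc (13.1), Lrp6 (10.8), Lrp5 (7.78), Axin2 (3.92), Tcf7l2 (0.743), Rnf43 (0.383), Tcf7 (0.151), Lef1 (0.0946) and Tcf7l1 (0.0542). Over the 4 cultures, the ranges of Apc and Lrp6 overlapped, as did those of Lrp6 and Lrp5. Axin2 was below every value of Lrp5, Tcf7l2 below every value of Axin2, and Rnf43 below every value of Tcf7l2. The lowest Rnf43 value, 0.276 TPM, was below the highest of Tcf7, 0.296 TPM, and the ranges of Tcf7, Lef1 and Tcf7l1 overlapped. Within each of the 4 cultures, however, Apc was above Lrp6 and Rnf43 above Tcf7. Only Apc, Lrp6, Lrp5 and Axin2 passed the minimum of 1 TPM, and Rnf43 and all 4 TCF and LEF genes were below it and outside the main test. Of the 4 members tested, Lrp6 and Apc rose in 3D, Lrp5 fell, and Axin2 did not pass the threshold, an adjusted p below 0.05. For comparison, 38.0% of all 11960 genes tested passed it, 18.5% as higher and 19.5% as lower in 3D. The groups did not overlap in TPM for any of these 4 members, which was also the case for 74.2% of all genes tested, so that such separation was shared by most genes.

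**Figure D1:**
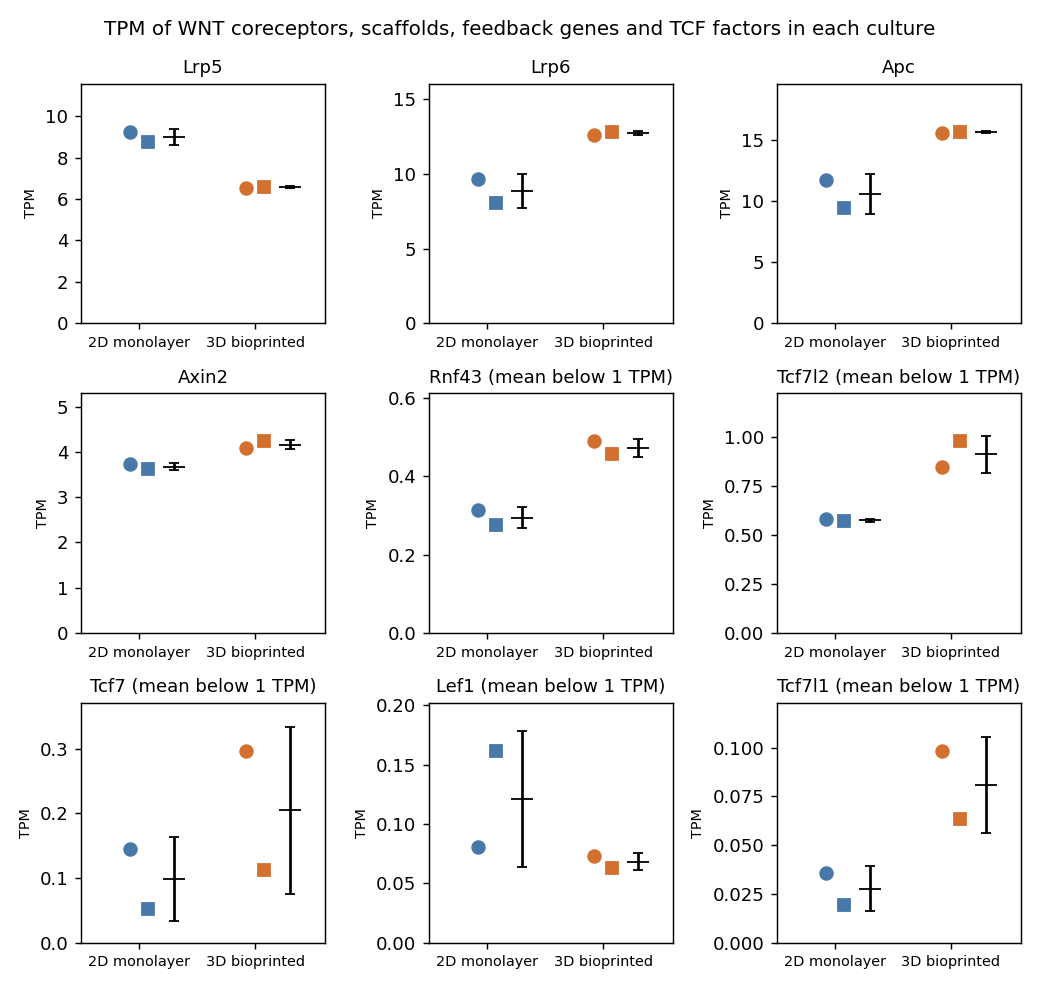
TPM of the 9 members in each culture, with blue for 2D monolayer, orange for 3D bioprinted, circles for replicate 1 and squares for replicate 2. Each vertical axis starts at 0 and has its own scale in TPM, and the black marks show mean ± SD (n = 2). Lrp5 was lower in both 3D cultures, Lrp6 and Apc were higher, and the 3D values of Tcf7 overlapped those of 2D.

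The coreceptor genes went in opposite directions. Lrp5, which encodes one of the single-pass receptors that bind WNT beside Frizzled, was at 9.26 and 8.74 TPM in the 2D cultures and at 6.53 and 6.59 TPM in the 3D cultures. Both 3D cultures lay below both 2D cultures, at means of 9.0 ± 0.369 TPM in 2D and 6.56 ± 0.0440 TPM in 3D (SD, n = 2 each). Its log2 fold change was -0.44 (SE 0.073, 95% interval -0.62 to -0.26, limma, adjusted p = 0.010). Lrp6, its close relative with the same role, was at 9.68 and 8.08 TPM in 2D and at 12.6 and 12.8 TPM in 3D. The 3D cultures were nearly alike and lay above the 2D cultures, which were more spread, at 8.88 ± 1.13 TPM in 2D and 12.7 ± 0.155 TPM in 3D (SD, n = 2 each). Its log2 fold change was 0.44 (SE 0.084, 95% interval 0.23 to 0.65, limma, adjusted p = 0.0141).

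Because both coreceptors were measured in the same cultures, their ratio does not depend on the scaling between samples. The Lrp6 level divided by the Lrp5 level was 1.05 and 0.925 in the 2D cultures and 1.93 and 1.95 in the 3D cultures. Thus in 2D the genes were at about the same level, with each of them the higher in 1 culture, and in 3D Lrp6 was the higher in both. The mean ratio was 0.985 ± 0.0856 in 2D and 1.94 ± 0.0106 in 3D (SD, n = 2 each).

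Apc encodes the large scaffold that binds beta-catenin and AXIN in the destruction complex. It was at 11.7 and 9.42 TPM in 2D and at 15.6 and 15.7 TPM in 3D. As for Lrp6, the 2D cultures were further apart than the 3D cultures, at 10.6 ± 1.62 TPM in 2D and 15.7 ± 0.0751 TPM in 3D (SD, n = 2 each), and replicate 2 was the lower of the 2D cultures. The log2 fold change of Apc was 0.49 (SE 0.092, 95% interval 0.26 to 0.72, limma, adjusted p = 0.0135).

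The directions of Lrp5, Lrp6 and Apc held under each of 3 ways of scaling the samples and with each culture left out. All 3 were called in 10 of 13 other settings, and none in the other 3, which were a threshold of 0.01 and the fits that left out either 3D culture. With either 3D culture left out, so that the remaining one was assumed to vary like the 2D cultures, the adjusted p in limma of the 3 genes lay between 0.0735 and 0.106 and none was called. The log2 fold changes were then -0.44 for Lrp5 and 0.44 for Lrp6 with either left out. For Apc they were 0.49 without 3D replicate 1 and 0.50 without 3D replicate 2. The sizes of Apc and Lrp6 moved more with a 2D culture left out. Without 2D replicate 1 they were 0.60 for Apc and 0.52 for Lrp6, and without 2D replicate 2 they were 0.38 and 0.35. Lrp5 was at -0.44 and -0.45 in these fits.

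Axin2, the AXIN paralog that is widely read as a reporter of beta-catenin and TCF activity, was at 3.72 and 3.62 TPM in 2D and at 4.08 and 4.23 TPM in 3D. The 3D cultures lay above the 2D cultures by less than 1 TPM, at 3.67 ± 0.0704 TPM in 2D and 4.16 ± 0.104 TPM in 3D (SD, n = 2 each). The log2 fold change was 0.11 (SE 0.089, 95% interval -0.12 to 0.33, limma, adjusted p = 0.369). Its adjusted p lay between 0.225 and 0.600 in 12 other settings. The interval overlaps those of Lrp6 and Apc, and the difference between these genes was not tested. It does not show that the level of Axin2 was the same in both groups.

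Rnf43, the other feedback gene, was at 0.313 and 0.276 TPM in 2D and at 0.489 and 0.456 TPM in 3D. Both 3D cultures lay above both 2D cultures, at 0.295 ± 0.0259 TPM in 2D and 0.472 ± 0.0236 TPM in 3D (SD, n = 2 each), a ratio of 1.6. When all genes above 0 in any sample entered the fit, 21.4% of 16749 genes were called and Rnf43 was not, with a log2 fold change of 0.17 and an adjusted p of 0.0644 in limma. With a pseudocount of 0.1 TPM and no filter, a setting chosen after seeing the data that called 22.1% of genes, its log2 fold change was 0.50 (limma, adjusted p = 0.138).

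Among the transcription factor genes, Tcf7l2 was the most abundant in every culture. It was at 0.580 and 0.569 TPM in 2D and at 0.846 and 0.978 TPM in 3D. The 2D cultures were nearly alike and both 3D cultures lay above them, at 0.575 ± 0.00745 TPM in 2D and 0.912 ± 0.0932 TPM in 3D (SD, n = 2 each), a ratio of 1.59. Without the filter, its log2 fold change was 0.26 with an adjusted p of 0.0533 in limma, just above the threshold. With a pseudocount of 0.1 TPM and no filter, the log2 fold change was 0.54 (95% interval 0.042 to 1.04, limma, adjusted p = 0.107). A single Tcf7l2 transcript was listed (ENSRNOT00000019681.6), which carried all of these TPM, so the alternative exons for which the gene is known were not analysed here.

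The other 3 factors were lower still. Tcf7, which encodes TCF1, was at 0.144 and 0.0525 TPM in 2D and at 0.296 and 0.113 TPM in 3D, and the groups overlapped. Lef1 was the only member below the filter that was higher in 2D, at 0.0806 and 0.161 TPM against 0.0735 and 0.0632 TPM in 3D. Its log2 fold change of -0.073 became -0.017 without 2D replicate 2, the highest of the 4 cultures, -0.13 without 2D replicate 1, and -0.39 with a pseudocount of 0.1 TPM, where its adjusted p was 0.361 in limma without the filter.
Tcf7l1, which encodes TCF3, a member of the family known mainly as a repressor, was at 0.0359 and 0.0196 TPM in 2D and at 0.0982 and 0.0633 TPM in 3D, with no overlap. Of the 5 members below the minimum, 3 were higher in both 3D cultures, 1 was lower and 1 overlapped. The groups did not overlap in 40.3% of the 4789 genes below the minimum that were above 0 in any culture, and in 74.2% of those above it, so that the count says nothing particular about these members. None of the 5 was called without the filter (adjusted p between 0.0533 and 0.382 in limma), and 2 of them, Tcf7l2 and Rnf43, had an unadjusted p below 0.05 in that fit.

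The summed level of the 4 TCF and LEF genes was 0.841 and 0.803 TPM in 2D and 1.31 and 1.22 TPM in 3D. Tcf7l2 made up 69.0% and 70.9% of it in 2D and 64.4% and 80.3% in 3D, so its share in 2D lay within the range of the 3D cultures. The plot of log2 fold changes sets the members side by side with a pseudocount of 0.1 TPM, on which the values of the members below 1 TPM depend most.

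**Figure D2:**
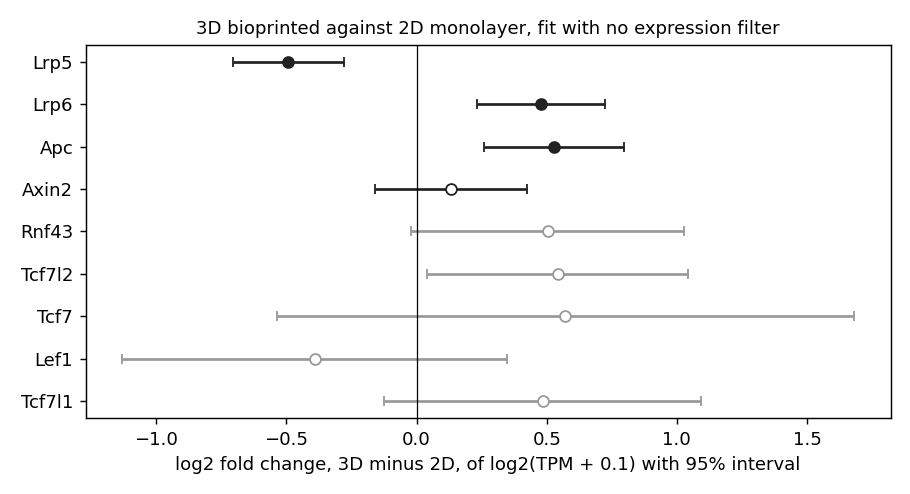
Log2 fold change, 3D minus 2D, of log2(TPM + 0.1) for the 9 members, with 95% intervals from limma fitted without a minimum TPM. Filled points have an adjusted p below 0.05, gray marks members with a mean below 1 TPM. The intervals of Lrp5 (-0.70 to -0.28), Lrp6 (0.23 to 0.72) and Apc (0.26 to 0.80) are narrow, whereas that of Tcf7 runs from -0.54 to 1.68.

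Apc and Lrp6 were each listed with 2 transcripts, and the other members with 1. Of the Apc transcripts, ENSRNOT00000027691.3 was at 3.51 and 1.41 TPM in 2D and at 7.04 and 5.85 TPM in 3D, whereas ENSRNOT00000090264.1 was at 8.21 and 8.01 TPM in 2D and at 8.57 and 9.87 TPM in 3D. The first of these made up 29.9% and 15.0% of Apc TPM in 2D and 45.1% and 37.2% in 3D, so its share was higher in both 3D cultures. Its log2 fold change was 1.12 (SE 0.31, limma, adjusted p = 0.0649 over all transcripts), against 0.11 (SE 0.091, limma, adjusted p = 0.417) for the other, and neither passed the threshold. Reads that match both transcripts of a gene are divided by estimation, so the split between them is uncertain.

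The Lrp6 transcripts were at nearly equal levels. ENSRNOT00000066575.2 was at 4.77 and 4.34 TPM in 2D and at 6.05 and 6.35 TPM in 3D, and ENSRNOT00000082102.1 was at 4.92 and 3.73 TPM in 2D and at 6.58 and 6.49 TPM in 3D. Both lay higher in 3D, with log2 fold changes of 0.32 (limma, adjusted p = 0.0627) and 0.46 (limma, adjusted p = 0.0604). Of the 6 member transcripts tested, only the Lrp5 transcript was called, with a log2 fold change of -0.46 (limma, adjusted p = 0.0249), and 23.5% of all 15020 transcripts tested were. It was called in neither fit that left out a 3D culture, nor in that without 2D replicate 2.

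**Figure D3:**
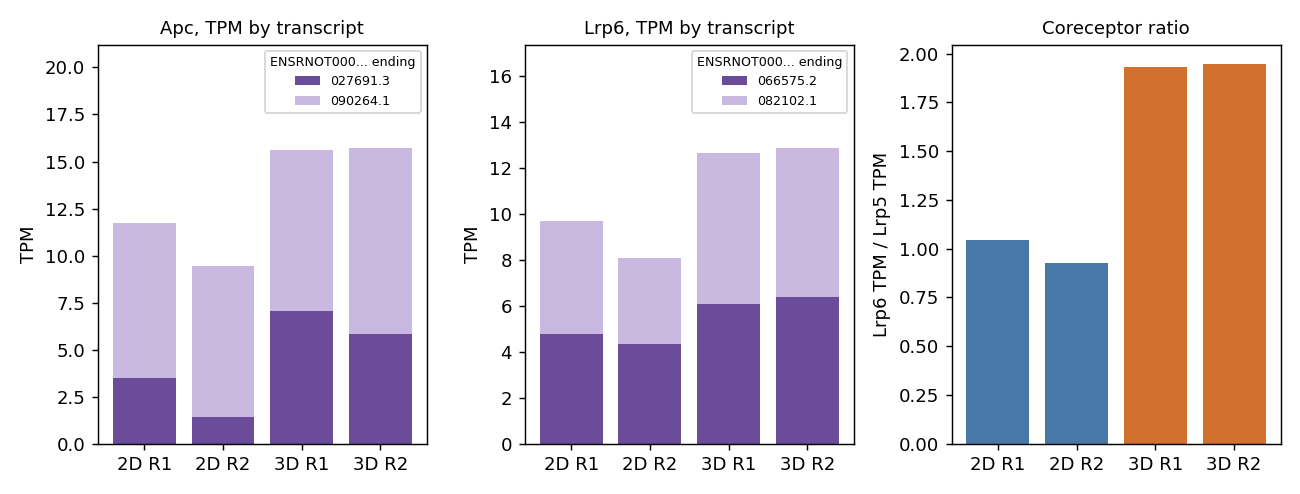
Left and middle, TPM of the 2 listed transcripts of Apc and of Lrp6 stacked in each culture, R1 and R2 being the replicates. Right, the Lrp6 level divided by the Lrp5 level in each culture, at 1.05 and 0.925 in 2D and at 1.93 and 1.95 in 3D.

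Beyond the members, lists of WNT pathway components, chosen with earlier results of these data known, held 136 other genes with listed TPM. Of the 136, 82 were tested. Of these, 26 rose and 10 fell, so that 43.9% were called beside the 38.0% of all genes. These calls rest on few cultures, since the 36 became 1 without 3D replicate 1, 8 without 3D replicate 2 and 20 without 2D replicate 2, while the 4541 of all genes became 136 and 1037 without 3D replicates 1 and 2. Their median log2 fold change was 0.14 against -0.0031 for all genes tested. Without scaling, 26 rose and 6 fell, with a median of 0.036 for all genes. The part of the choice of lists in these values was not tested. The other 54 had a mean below 1 TPM, and 18 of these were listed at 0 in every culture.

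Of the WNT ligands and the genes of their secretion, 3 of the 5 tested rose and none fell. This was 60% of those tested, beside 38.0% of all genes, and 8 of the 21 listed were at 0 in all cultures. Wnt4, the ligand with the highest level, was at 34.7 and 34.3 TPM in 2D and at 60.4 and 59.0 TPM in 3D (log2 fold change 0.73, limma, adjusted p = 0.0036). Wls and Porcn, which carry and acylate WNT proteins, rose with log2 fold changes of 0.51 and 0.39. Of the list of secreted inhibitors and Kremen receptors, 3 genes were tested, and 1 rose and 1 fell (66.7% called). Wif1, which binds WNT outside the cell, was at 91.0 and 87.1 TPM in 2D and at 134 and 116 TPM in 3D and rose (log2 fold change 0.43), whereas Kremen1, a receptor for the DKK inhibitors of LRP5 and LRP6, fell with a log2 fold change of -0.53.

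On the R-spondin axis, to which Rnf43 belongs, 1 of the 2 other genes tested rose (50%). This was Rspo4, a secreted R-spondin, at 75.3 and 70.9 TPM in 2D and at 156 and 137 TPM in 3D (log2 fold change 0.95, limma, adjusted p = 0.0038). Of 9 Frizzled and Dishevelled genes tested, 2 rose and 1 fell, so that 33.3% were called beside 38.0% of all genes. Fzd9 was at 0.939 and 0.644 TPM in 2D and at 4.20 and 3.08 TPM in 3D (log2 fold change 1.34, limma, adjusted p = 0.0058), Dvl1 rose (0.24), and Fzd2 fell with a log2 fold change of -0.58. Dvl3, the most abundant of them, had a log2 fold change of 0.077 (limma, adjusted p = 0.335).

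In the destruction complex, 13.3% of the 15 tested genes that were no members were called, beside 38.0% of all genes, and 2 rose and none fell. These were Gsk3b, a kinase of beta-catenin (log2 fold change 0.54), and Tnks, a tankyrase that marks AXIN for degradation (19.3 and 11.5 TPM in 2D, 25.4 and 25.7 TPM in 3D, log2 fold change 0.70, limma, adjusted p = 0.0421). Csnk1a1, which encodes CK1 alpha and had the highest level of the list, had a log2 fold change of 0.15 (limma, adjusted p = 0.135). Thus Apc was 1 of 3 genes called among the 17 of this list that were tested, members included.

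Of the nuclear cofactors of the TCF factors, 9 of 24 tested rose and 6 fell, so 62.5% were called beside 38.0% of all genes. Hipk2, a nuclear kinase, Ep300, a histone acetyltransferase that acts as a coactivator, and Bcl9, which binds beta-catenin, rose with log2 fold changes of 1.03, 0.88 and 0.43. Ruvbl1, a chromatin ATPase, and Tle5, a short Groucho family protein and the most abundant gene of the list, fell with log2 fold changes of -0.35 and -0.27. Levels of Tle5 were 960 and 993 TPM in 2D and 823 and 841 TPM in 3D.

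Genes often used as targets of beta-catenin and TCF did not share a direction. Leaving out the members, 2 of 8 tested rose, 1 fell and 5 were not called. The share called was 37.5%, near the 38.0% of all genes. Myc was at 46.8 and 44.3 TPM in 2D and at 75.3 and 65.4 TPM in 3D (log2 fold change 0.57, limma, adjusted p = 0.0081), and Jun rose with one of 0.49. Birc5, which encodes survivin, a protein of dividing cells, was at 92.1 and 105 TPM in 2D and at 61.1 and 63.5 TPM in 3D (log2 fold change -0.69, limma, adjusted p = 0.0065). These genes also respond to other pathways. Zcchc12, the most abundant of the list, overlapped between groups. In a list of noncanonical WNT receptors, planar polarity genes, calcium-dependent kinases and other effectors, 6 of 17 rose and 1 fell. This share of 41.2% was also near that of all genes. Of those that rose, 4 were the CaMKII kinase genes Camk2d (0.75), Camk2a (0.63), Camk2b (0.28) and Camk2g (0.24), and 2 were the polarity genes Celsr3 (0.57) and Prickle1 (0.34, all log2 fold changes). The receptor genes tested, Ror1, Ryk and Ptk7, had adjusted p-values of 0.0506, 0.0573 and 0.163 in limma, and the polarity gene Vangl1 fell with a log2 fold change of -0.34. The genes Camk2b, Camk2g, Ror1, Ryk, Ptk7 and Vangl1 were named after their values were seen. Rac1, the most abundant, had a log2 fold change of -0.092 (limma, adjusted p = 0.221).

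**Figure D4:**
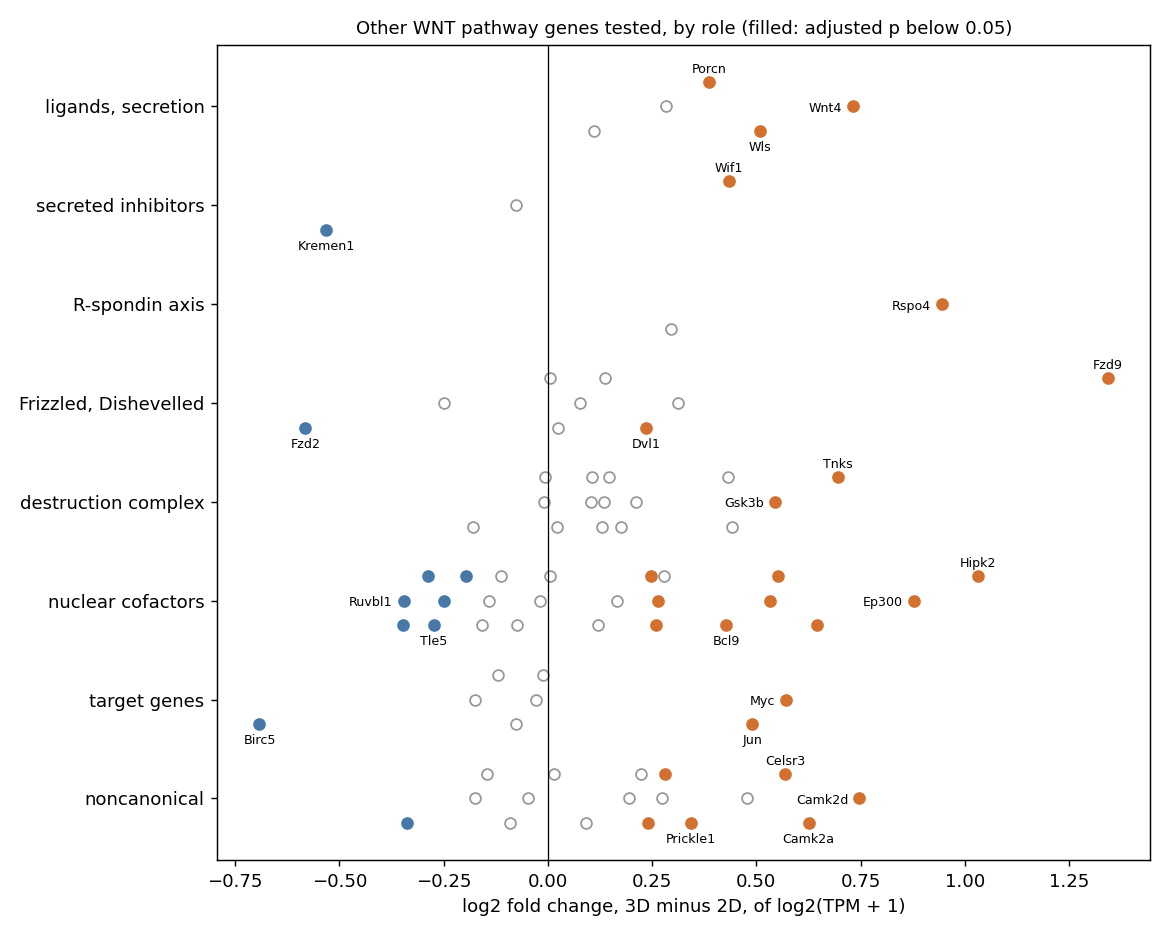
Log2 fold change, 3D minus 2D, of log2(TPM + 1) for each tested WNT pathway gene outside the 10 members, in rows by role. Filled points have an adjusted p below 0.05 (orange higher, blue lower in 3D). Genes named in the text are labelled where called, except Camk2b, Camk2g and Vangl1. The called genes of the list of ligands and their secretion (3 of 5 tested: Wnt4, Wls and Porcn) lie to the right of 0. So do those of the destruction complex (2 of 15 tested). Nuclear cofactors lie on both sides, with 9 higher and 6 lower.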

How the data were processed

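Polyadenylated RNA of 4 INS-1 cultures was sequenced as stranded single-end libraries. Per the methods, the authors quantified transcripts with Salmon 1.2 (quality control with FastQC 0.11.8) on an rn4 reference to which a human insulin sequence was added, and deposited the values as TPM per transcript, with decimal commas. Their gene-level count summary and DESeq2 test were not repeated, because TPM keep neither counts nor depth, and depth per sample was not used here.

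TPM were summed per gene symbol, scaled by a trimmed mean of log ratios without weights (trimming, per end, 30% of log ratios and 5% of mean levels) and fitted as log2(TPM + 1) with limma 3.58.1 (empirical Bayes, intensity trend) in R 4.3.3 for genes whose mean TPM reached 1. The model held culture alone, and tests were two-sided. Transcripts were fitted in the same way. The fit was also run on simulated data with changes larger than the fitted changes of the 4 members tested, which does not test it for changes of their size.

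The members and the pathway lists were chosen with earlier results of these data known. Of each pathway list, named genes are the called genes with the 4 smallest p and the gene with the highest mean TPM. Groups and replicate numbers came from the labels. Alternatives were scaling, filter, pseudocount, empirical Bayes options, threshold, replicate block and each culture left out. Promoter windows were RefSeq GRCr8 sequences, matched by symbol. Znrf3 and some markers were not analysed here.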

Additional observations from a re-analysis of the deposited data

How the results depend on the processing

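No direction of a member was reversed in any setting run. The stricter threshold, an adjusted p below 0.01, left 1418 genes, 12 other WNT pathway genes and 0 of the 3 members called in limma. When the cultures were left out 1 at a time, genes called ranged from 136 (without 3D replicate 1) to 4515, with 1037 without 3D replicate 2, members called from 0 to 3, and other WNT pathway genes called from 1 (without 3D replicate 1) to 33, with 8 without 3D replicate 2 and 20 without 2D replicate 2. Member transcripts called ranged from 0 to 2 in these fits, and were 0 without a filter. The cause was not tested. The log2 fold change of Tcf7l2 ranged from 0.22 to 0.30 with a culture left out. It was 0.54 with a pseudocount of 0.1, with or without the filter, since a smaller pseudocount shrinks the fold change of a low gene less. Cultures with the same replicate number did not share their deviations from the group means (correlation -0.006 over 11960 genes). Whether they were prepared together was not tested. With the replicate block, 4814 genes were called, 4303 of them among the 4541, and 2 member transcripts, and it changed the call of no member gene. With a pseudocount of 0.1, the log2 fold changes of the other members below 1 TPM were 0.50 for Rnf43, 0.57 for Tcf7, 0.49 for Tcf7l1 and -0.39 for Lef1. TPM carry no depth, so the precision rests on 2 cultures per group and on the spread that limma shares between genes.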
